A study of Mus musculus with 4 samples.

Results

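Blood endothelial cells, which line arteries, capillaries and veins, were picked out of 4 single-cell RNA-sequencing libraries of mouse pancreas by their own transcripts. A barcode was kept with at least 500 unique molecular identifiers (UMIs, each standing for 1 captured transcript), 200 or more genes and no more than 20% of its UMIs from mitochondrial genes. It was called a blood endothelial cell with at least 4 UMIs of Pecam1, Cdh5, Kdr, Flt1 and Egfl7 in sum and at least 1 UMI of Plvap, Cldn5, Emcn and Esam in sum. It also had to hold no UMI of the leukocyte gene Ptprc or the lymphatic gene Prox1, and at most 5 UMIs of the fibroblast gene Dcn. There were 278 such cells among 12807 kept barcodes. The cells were thus chosen by the levels of these genes, which are given as a description and used as support for nothing.

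The libraries came from wild-type (WT) C57BL/6 mice, 1 library per group. C2D was made after caerulein and 2 days of recovery, S2D after saline and 2 days, C6W after caerulein and 6 weeks, and S6W after saline and 6 weeks. Caerulein is a peptide that overstimulates acinar cells and is used to cause pancreatitis, and the saline mice served as inflammation-naive controls. The labels used here do not give the number of mice behind a library. With 1 library per group no difference between groups could be tested, and every 95% interval below covers counting error only.

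Endothelial cells form the inner wall of blood vessels, and their genes differ along the vascular tree. Arterial cells use Notch ligands and gap-junction genes, venous cells carry the adhesion molecules through which leukocytes leave the blood, and capillary cells carry transport genes. Flowing blood keeps the transcription factors Klf2 and Klf4 high in resting endothelium, where they restrain inflammation and clotting. Capillaries of the exocrine pancreas are fenestrated, with pores spanned by diaphragms built from the Plvap protein.

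The libraries held 29145886 to 71547194 UMIs in all. The endothelial cells had a median of 7036 UMIs in C2D, 5717 in S2D, 7046 in C6W and 6552 in S6W. Between 3 and 22 barcode sequences were shared by any pair of libraries, and none of them was an endothelial cell in both. Digestive-enzyme transcripts, which acinar cells release, made up 0.249% of the endothelial cells' UMIs in C2D, 3.04% in S2D, 1.2% in C6W and 2.13% in S6W. Digestive, mitochondrial, ribosomal protein, haemoglobin and immunoglobulin genes were left out of the gene comparisons.

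Blood endothelial cells made up 91 of 4656 kept barcodes in C2D (1.95%, 95% exact Clopper-Pearson interval 1.58 to 2.39) and 45 of 3346 in S2D (1.34%, 0.983 to 1.79). At 6 weeks they made up 12 of 2773 in C6W (0.433%, 0.224 to 0.755) and 130 of 2032 in S6W (6.4%, 5.37 to 7.55). C2D and S2D had overlapping intervals, C6W held the lowest share of the 4 libraries and S6W the highest. Many barcodes of C2D were leukocytes, so the share was also taken over barcodes with no Ptprc UMI. It was then 5.19% in C2D (4.2 to 6.34) and 2.15% in S2D (1.57 to 2.86), whose intervals did not overlap, and 0.564% in C6W (0.292 to 0.983) and 7.79% in S6W (6.55 to 9.18). Tissue was dissociated and living cells were sorted by DAPI, so a share can reflect the tissue, the dissociation or the sort, and these cannot be told apart. The 12 cells of C6W are given as counts only.

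**Figure D1:**
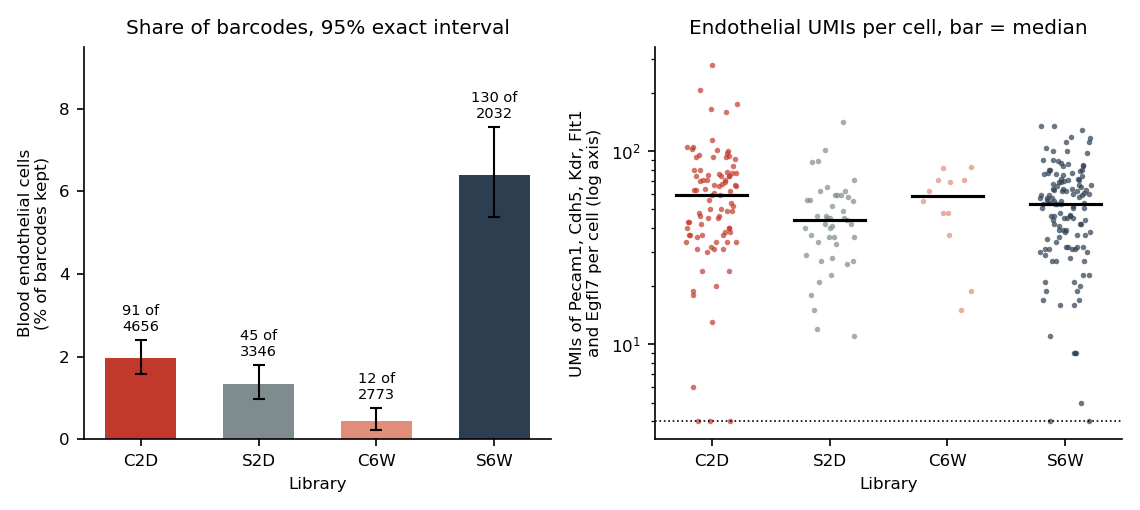
Left, the share of kept barcodes called blood endothelial cells in each library (bars, in percent, with 95% exact intervals), which is 1.95% in C2D, 1.34% in S2D, 0.433% in C6W and 6.4% in S6W. Right, the summed UMIs of the 5 genes used for the call in each cell (points, log axis, bar at the median, dotted line at the threshold of 4); most cells lie far above the threshold in each library.

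Few cells lay near the threshold. The 5 genes summed to a median of 59 UMIs per cell in C2D, 44 in S2D, 58.5 in C6W and 53.5 in S6W. Exactly 4 UMIs were found in 3 cells of C2D, 0 of S2D, 0 of C6W and 2 of S6W, and just outside, with 3 UMIs, lay 5 barcodes of C2D, 0 of S2D, 1 of C6W and 1 of S6W. In C2D, cells of 21841, 13610 and 9292 UMIs passed on Flt1 and Esam alone, at 0 UMIs of the other rule genes. They held 4, 6 and 4 UMIs of Flt1 and 4, 2 and 3 of Esam, so their endothelial identity is less sure. Plvap, also part of the rule, was found in 96.7% of cells in C2D, 91.1% in S2D and 97.7% in S6W. Cldn5, a tight-junction claudin that is high in brain vessels, was found in 9.89% of cells in C2D, 17.8% in S2D and 2.31% in S6W. In C6W, 69 UMIs of Cldn5 lay in 3 cells, which held 37, 31 and 1.

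Endothelial genes outside the rule were present in the same cells. Tie1, an endothelial receptor kinase, was found in 90.1% of cells in C2D, 93.3% in S2D and 90.8% in S6W. Among leukocyte barcodes, whose median depth was 14120 UMIs in C2D, 6574 in S2D and 8510 in S6W, Tie1 was found in 0.309% in C2D, 0.13% in S2D and 0.374% in S6W. Leukocyte barcodes were chosen to hold Ptprc and no UMI of Pecam1, Cdh5, Kdr, Flt1 or Egfl7. Low shares of endothelial genes in them, here and below, can thus follow in part from that choice. With each cell thinned to 1000 UMIs, the share for Tie1 in endothelial cells was 36.7% in C2D, 46.7% in S2D and 41.4% in S6W. As CPM, UMIs relative to a common library total, the 30 listed endothelial genes outside the rule summed to 13750 CPM in C2D, 13690 in S2D and 13640 in S6W, so their total was nearly level across the 3 libraries. Of 10 lymphatic markers, Ccl21a, Reln and Nts were at 0 in all 4 libraries, as Prox1 was by rule. Others were present, with 4 of the 10 found in C2D, 3 in S2D, 2 in C6W and 3 in S6W. The 10 summed to 169 UMIs in C2D, 37 in S2D, 14 in C6W and 118 in S6W. A single cell held up to 24 of them in C2D and up to 38 in S6W.

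Vessel-type genes were spread over the cells as overlapping ranges, and a cell was counted for a set with at least 2 UMIs of its genes. The capillary set (Rgcc, Gpihbp1, Cd300lg, Btnl9) was present in 83 of 91 cells (91.2%, 83.4 to 96.1) in C2D, 45 of 45 cells (100%, 92.1 to 100) in S2D and 128 of 130 cells (98.5%, 94.5 to 99.8) in S6W. The artery set (Gja4, Gja5, Bmx, Sema3g, Fbln5, Stmn2, Hey1) was present in 30 of 91 cells (33%, 23.5 to 43.6) in C2D, 14 of 45 cells (31.1%, 18.2 to 46.6) in S2D and 28 of 130 cells (21.5%, 14.8 to 29.6) in S6W. Capillary genes were thus found in nearly every cell, and the artery-set intervals overlapped. In leukocyte barcodes the capillary set was present in 14.2% in C2D, 9.21% in S2D and 14.2% in S6W, and the artery set in 0.926% in C2D, 0.908% in S2D and 1.12% in S6W.

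The vein set (Ackr1, Selp, Nr2f2, Vwf) was present in 22 of 91 cells (24.2%, 15.8 to 34.3) in C2D, 6 of 45 cells (13.3%, 5.05 to 26.8) in S2D and 8 of 130 cells (6.15%, 2.69 to 11.8) in S6W. The intervals of C2D and S6W did not overlap, and those of C2D and S2D did. In thinned cells the intervals of C2D (3.92 to 16.8) and S6W (0.0198 to 4.28) overlapped too. In thinned cells the vein set stood at 8.89% in C2D, 4.44% in S2D and 0.781% in S6W, and in leukocyte barcodes, unthinned, at 1.47% in C2D, 1.82% in S2D and 1.5% in S6W. The sprout set (Apln, Esm1, Angpt2, Pgf), genes of endothelial tip cells, was present in 36 of 91 cells (39.6%, 29.5 to 50.4) in C2D, 12 of 45 cells (26.7%, 14.6 to 41.9) in S2D and 39 of 130 cells (30%, 22.3 to 38.7) in S6W. In thinned cells it stood at 8.89% in C2D, 8.89% in S2D and 10.2% in S6W, so the higher share in C2D was not seen at equal depth. In C6W the artery set was present in 1 of 12 cells, the vein set in 2, the capillary set in 11 and the sprout set in 5. The C2D cells that passed on Flt1 and Esam alone counted for the vein set (4, 2 and 3 UMIs) and the sprout set (4, 4 and 2). None of them held a capillary-set UMI, and that of 9292 UMIs also counted for the artery set.

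**Figure D2:**
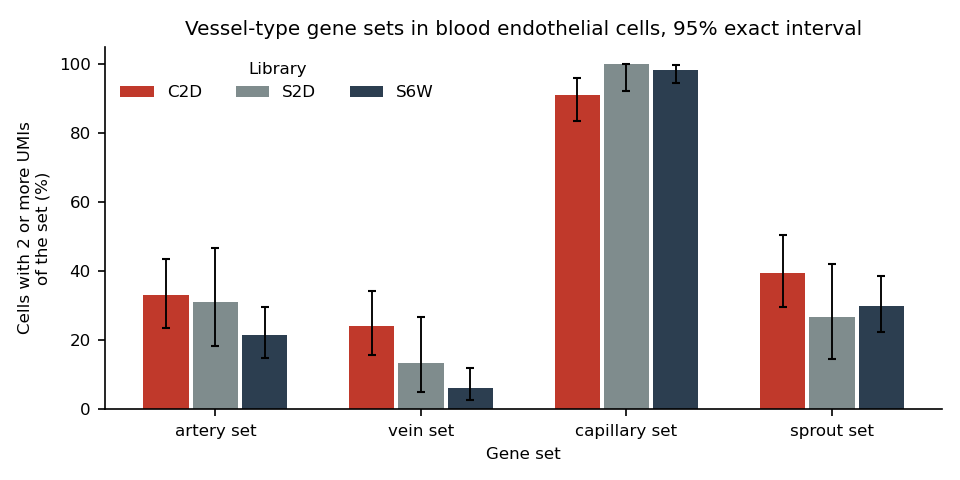
Share of blood endothelial cells with at least 2 UMIs of each vessel-type gene set (bars, in percent, with 95% exact intervals) in C2D, S2D and S6W. The capillary set is above 90% in each library, and the vein set is at 24.2% in C2D, 13.3% in S2D and 6.15% in S6W.

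Some other vessel genes differed between cells with and without a set, and some did not. Efnb2, the arterial ephrin ligand, was higher in artery-set cells than in the rest, with a log2 ratio of 1.06 (0.42 to 1.71) in C2D, 1.20 in S2D and 1.58 in S6W. Klf2 was higher in artery-set cells too, with log2 ratios of 0.92 in C2D, 0.57 in S2D and 0.94 in S6W. The S2D ratio rests largely on 1 cell, which held 102 of the 233 Klf2 UMIs of the artery-set cells there. Dll4, a Notch ligand, and Sox17, an arterial transcription factor, had log2 ratios of 0.63 and 0.56 in artery-set cells of C2D, but -0.17 and -0.21 in S2D. Cd36, a fatty acid transporter of capillaries, was higher in artery-set cells, with log2 ratios of 1.07 in C2D, 1.03 in S2D and 0.63 in S6W. The venous list member Tmem252 had log2 ratios in vein-set cells of -0.95 in C2D, 0.84 in S2D and 1.64 in S6W. For Ephb4, of the same list, they were 0.19 in C2D, 0.52 in S2D and -0.13 in S6W. Other venous list members were higher in vein-set cells of C2D, with log2 ratios of 2.02 for Lrg1, 1.985 for Il1r1 and 7.37 for Vcam1. Lrg1 and Vcam1 were higher in vein-set cells of S2D and S6W too. For Il1r1 the log2 ratio was -1.50 in S2D, on 1 UMI in vein-set cells, and 0.85 (-0.89 to 2.25) in S6W. In vein-set cells of C2D the capillary genes Rgcc and Car4 were lower, with log2 ratios of -1.14 and -3.17. In sprout-set cells of C2D, Igfbp3, a binding protein of insulin-like growth factors, had a log2 ratio of 1.58 (1.37 to 1.80), and Aplnr, the apelin receptor, one of -1.55 (-2.08 to -1.05). For Igfbp3 it was 0.60 in S2D and 0.84 in S6W. For Aplnr it was -0.86 (-3.33 to 1.025) in S2D and -0.62 (-1.44 to 0.14) in S6W.

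To set caerulein against saline, the UMIs of each gene were summed over the cells of a library, scaled to CPM by the TMM method and compared as a log2 ratio. In such sums, more cells holding a transcript and more of it per cell cannot be told apart. Among 1628 genes with at least 100 UMIs over C2D and S2D, 78 were at least 2-fold higher in C2D than in S2D (4.79%) and 37 at least 2-fold lower (2.27%). With totals that leave out the digestive genes the split was 57 higher and 48 lower, as that scaling moved the median log2 ratio of all genes by 0.11, to 0.01 in place of 0.12. The saline libraries also differed: of 1830 genes, 34 were at least 2-fold higher in S6W than in S2D (1.86%) and 21 lower (1.15%). A stricter count asked C2D to lie at least 2-fold beyond both S2D and S6W, which 35 genes did above (2.15%) and 15 below (0.921%). Both ratios share C2D, so they are not independent.

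The 15 named genes above both saline libraries included surface receptors and enzymes. Aplnr, at chr2:85136225-85139923 (plus strand) on mm10, encodes the receptor through which apelin acts on endothelial growth. It gave 187 UMIs in C2D, 15 in S2D and 83 in S6W, or 261 CPM in C2D, 52.3 in S2D and 96.9 in S6W. C2D was highest and S6W lay between, with a log2 ratio of 2.32 (1.56 to 3.18) over S2D and 1.43 (1.05 to 1.82) over S6W. Aplnr was found in 55% of cells in C2D, 20% in S2D and 30% in S6W, in thinned cells in 16.7% in C2D, 2.22% in S2D and 7.03% in S6W, and in leukocyte barcodes in 0.694% in C2D, 0% in S2D and 0% in S6W. It was higher in C2D than in S2D in fibroblast barcodes as well (log2 ratio 3.78, on 6 UMIs in S2D). In C6W, 17 UMIs were counted.

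Ace, angiotensin-converting enzyme of the endothelial surface, gave 307 CPM in C2D, 76.7 in S2D and 82.8 in S6W. The saline libraries lay close together and C2D above both, with a log2 ratio of 2.00 (1.36 to 2.70) over S2D and 1.89 (1.5 to 2.29) over S6W. Prcp, prolylcarboxypeptidase, which trims angiotensin peptides, gave 99 UMIs in C2D, 7 in S2D and 25 in S6W, a log2 ratio of 2.50 (1.40 to 3.85) over S2D and 2.24 (1.60 to 2.94) over S6W. In fibroblast barcodes the log2 ratio of C2D over S2D was -1.11 for Ace and 0.83 for Prcp. In C6W, 1 UMI of Ace and 6 of Prcp were counted.

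Lamb1, the laminin beta 1 chain of basement membranes, gave 309.5 CPM in C2D, 76.7 in S2D and 87.5 in S6W. S2D and S6W were close and C2D apart, with a log2 ratio of 2.01 (1.38 to 2.72) over S2D and 1.82 (1.44 to 2.22) over S6W. Lamb1 was found in 69.2% of cells in C2D, 31.1% in S2D and 31.5% in S6W, in thinned cells in 23.3% in C2D, 8.89% in S2D and 9.38% in S6W, and in leukocyte barcodes in 2.51% in C2D, 1.3% in S2D and 1.87% in S6W. Vwa1, a matrix protein of basement membranes, gave 477 CPM in C2D, 171 in S2D and 155 in S6W, with a log2 ratio of 1.48 (1.05 to 1.94) over S2D. In fibroblast barcodes both were lower in C2D than in S2D, with log2 ratios of -1.22 for Lamb1 and -1.98 for Vwa1. Adamts9, a secreted metalloprotease, gave 551 CPM in C2D, 167 in S2D and 264 in S6W, a log2 ratio of 1.72 (1.28 to 2.18) over S2D.

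Sox4, a transcription factor, gave 371 CPM in C2D, 76.7 in S2D and 99.2 in S6W. C2D stood well above both saline libraries, with a log2 ratio of 2.27 (1.65 to 2.97) over S2D and 1.90 (1.54 to 2.27) over S6W. Sox4 was higher in C2D in fibroblast (2.42), mural (3.15), leukocyte (2.97) and lymphatic barcodes (1.61, 0.22 to 3.51, on 4 UMIs in S2D) as well. There were only 24 lymphatic barcodes in C2D, 3 in S2D and 11 in S6W, and every lymphatic ratio given here rests on these. Mural barcodes numbered 52 in C2D, 23 in S2D and 16 in S6W. Bcr gave 1399 CPM in C2D, 432 in S2D and 529 in S6W, the most abundant of the 15, with a log2 ratio of 1.69 (1.42 to 1.98) over S2D. For Bcr the log2 ratio was 2.76 in fibroblast barcodes and -2.90 in mural barcodes.

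The remaining named genes above both were Plat, described with the clotting genes, Serpine2, Arhgdib, Stab1, Pdlim7, Abca1 and Tmem176a. Stab1, a scavenger receptor, and Abca1, a cholesterol exporter, had log2 ratios over S2D of 1.61 and 1.58 in endothelial cells, and of 5.10 and 3.66 in leukocyte barcodes. Of 118 UMIs of Arhgdib, a gene abundant in leukocytes, in C2D, 83 lay in 1 cell, and of 104 UMIs of Serpine2, a protease inhibitor, 52 lay in 1 cell. With at least 8 UMIs of the 5 rule genes asked of a cell, the log2 ratio of Arhgdib over S2D was -1.68 in place of 1.65, and that of Serpine2 -0.33 in place of 2.38. The other 13 stayed at least 2-fold higher. Of 10 genes that could be compared in thinned cells, Plat and Stab1 were less than 2-fold higher. Adamts9 was so without artery-set and vein-set cells, and Arhgdib without its highest cell.

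Macrophage transcripts were more abundant in the endothelial cells of C2D. Of 12 macrophage markers, 12 had a UMI in C2D, 5 in S2D and 10 in S6W, and they summed to 1292 CPM in C2D, 576 in S2D and 664 in S6W. Lyz2, the macrophage lysozyme, was found in 46.1% of cells in C2D, 0% in S2D and 1.54% in S6W, and in leukocyte barcodes in 94.7% in C2D, 15.1% in S2D and 48.3% in S6W. In cells with at most 2 UMIs of other-cell markers, 13 of the 15 genes could be compared, and these 13 were at least 2-fold higher than in S2D.

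**Figure D3:**
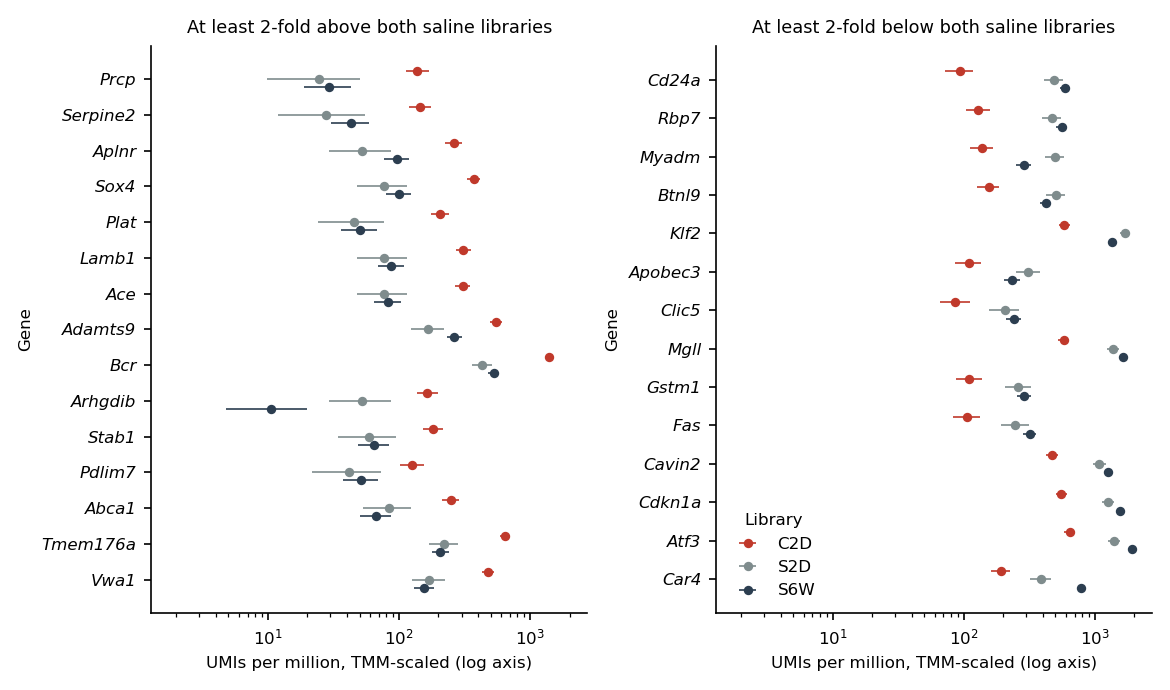
Level of the 15 named genes above (left) and the 14 below (right) both saline libraries, in TMM-scaled CPM of blood endothelial cells (log axis, points with 95% intervals) in C2D, S2D and S6W. The C2D point lies at least 2-fold from both saline points for each gene, with log2 ratios over S2D between 1.48 and 2.50 on the left and between -2.38 and -1.01 on the right.

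Of the 15 genes at least 2-fold below both saline libraries, 14 met the rule for naming, and several belong to capillaries. Rbp7, a retinol-binding protein of capillary endothelium, gave 128 CPM in C2D, 470.5 in S2D and 558 in S6W. Btnl9, a butyrophilin-like surface protein, gave 155 CPM in C2D, 505 in S2D and 421 in S6W. Car4, a carbonic anhydrase on the capillary surface, gave 192 CPM in C2D, 387 in S2D and 784 in S6W. C2D was lowest for each, with log2 ratios over S2D of -1.88 (-2.27 to -1.48) for Rbp7, -1.71 (-2.08 to -1.34) for Btnl9 and -1.01 (-1.38 to -0.63) for Car4. Over S6W the log2 ratios were -2.12, -1.45 and -2.03. Rbp7 was found in 35.2% of cells in C2D, 68.9% in S2D and 67.7% in S6W, in thinned cells in 10% in C2D, 40% in S2D and 33.6% in S6W, and in leukocyte barcodes in 0.0386% in C2D, 0.13% in S2D and 0.749% in S6W. In lymphatic barcodes Rbp7 was lower in C2D too (log2 ratio -3.28, on 17 UMIs in C2D, 15 in S2D and 19 in S6W).

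Gene lists were counted over members with at least 20 UMIs in C2D and S2D together. Among all 5973 genes at that minimum, 555 were at least 2-fold higher in C2D than in S2D (9.29%) and 241 lower (4.03%), with a median log2 ratio of 0.09. Of 15 such members of the capillary list, 1 was at least 2-fold higher (Aplnr) and 2 lower (Btnl9 and Car4), with a median log2 ratio of -0.31. Rgcc, a cell-cycle regulator that marks capillaries, gave 2058 CPM in C2D, 2014 in S2D and 2845 in S6W, and Gpihbp1, which anchors lipoprotein lipase to the capillary wall, gave 1124 CPM in C2D, 1593 in S2D and 1687 in S6W. Their log2 ratios over S2D were 0.03 and -0.50. Summed over the list the level was 17720 CPM in C2D, 21410 in S2D and 27480 in S6W, lowest in C2D and highest in S6W.

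Klf2, the flow-responsive transcription factor at chr8:72319033-72321656 (plus strand) on mm10, gave 419 UMIs in C2D, 488 in S2D and 1164 in S6W, or 584 CPM in C2D, 1701 in S2D and 1358 in S6W. C2D was lowest, with a log2 ratio of -1.54 (-1.73 to -1.35) over S2D and -1.22 (-1.38 to -1.05) over S6W. Klf4, its relative at chr4:55527143-55532466 (minus strand), gave 481 CPM in C2D, 1192 in S2D and 932 in S6W, with a log2 ratio of -1.31 (-1.53 to -1.09) over S2D and -0.95 (-1.14 to -0.77) over S6W, just short of 2-fold against S6W. In thinned cells Klf2 was found in 33.3% in C2D, 62.2% in S2D and 61.7% in S6W. Klf2 was also lower in C2D in leukocyte (-1.82), mural (-3.03) and lymphatic barcodes (-1.21), while its log2 ratio in fibroblast barcodes was 0.22. With artery-set and vein-set cells left out, the log2 ratio of Klf2 over S2D was -1.88. In C6W, 99 UMIs of Klf2 were counted.

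The promoters of Klf2 and Klf4 are shown because both genes were lower in C2D and because flow is known to act on Klf2 through MEF2 factors. The sequences are from RefSeq on GRCm38.p6, 250 to 51 bases before the RefSeq start of the gene, 5′ to 3′ on its strand: chr8:72318812-72319011 (plus strand) for Klf2 and chr4:55532526-55532725 (minus strand) for Klf4. Capitals mark a match to an MEF2-type motif, CTA, any 4 bases and TAG, which reads the same on both strands.
Klf2: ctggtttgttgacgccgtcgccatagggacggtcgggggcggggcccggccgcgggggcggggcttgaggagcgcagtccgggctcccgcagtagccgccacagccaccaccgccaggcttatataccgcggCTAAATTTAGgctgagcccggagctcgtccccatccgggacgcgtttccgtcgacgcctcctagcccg
Klf4: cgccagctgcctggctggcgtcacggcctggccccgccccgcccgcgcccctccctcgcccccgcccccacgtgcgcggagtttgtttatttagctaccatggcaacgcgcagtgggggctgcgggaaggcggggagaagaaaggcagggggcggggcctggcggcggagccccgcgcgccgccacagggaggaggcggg
The motif was found in the Klf2 window, starting 118 bases before the RefSeq start of the gene, and not in the Klf4 window. The RefSeq starts differ from those of the gene positions given above, which are from GENCODE. Of 32851 promoter windows of 300 bases, 1211 held it (3.69%). A match describes the letters of the window only.

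Of 18 measured genes of the flow and BMP list, 0 were at least 2-fold higher in C2D than in S2D and 3 were lower (Klf2, Klf4 and Bmp6), beside 9.29% and 4.03% of all genes, with a median log2 ratio of -0.27 over S2D. Bmp6, a BMP ligand, gave 19 UMIs in C2D, 16 in S2D and 77 in S6W. Id1, a target of BMP signalling, gave 279 CPM in C2D, 554 in S2D and 417 in S6W, a log2 ratio of -0.99 (-1.30 to -0.68) over S2D. The BMP co-receptor Eng (0.11) and the inhibitory Smad6 (-0.39) and Smad7 (0.08) were within 2-fold. Against S6W the median of the list was 0.01.

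Mgll, a lipase of monoglycerides, gave 580 CPM in C2D, 1377 in S2D and 1640 in S6W, with a log2 ratio of -1.25 (-1.45 to -1.04) over S2D, and was lower in C2D in fibroblast (-2.95), mural (-2.92), leukocyte (-1.80) and lymphatic barcodes (-2.95) too. Cavin2, a coat protein of caveolae, gave 469.9 CPM in C2D, 1084 in S2D and 1260 in S6W and was the 1 member of 16 junction and caveola genes past 2-fold, with a log2 ratio of -1.21 (-1.43 to -0.98). Cdkn1a, an inhibitor of the cell cycle, gave 556 CPM in C2D, 1265 in S2D and 1558 in S6W, with a log2 ratio of -1.19 in endothelial cells and 2.73 in leukocyte barcodes. Cd24a, a surface glycoprotein, gave 93.4 CPM in C2D, 484 in S2D and 594 in S6W, the lowest log2 ratio of the 14 at -2.38 (-2.82 to -1.94) over S2D. C2D was the low library for all of these. The others were Myadm, Apobec3, Clic5, Gstm1, Fas and Atf3, with log2 ratios over S2D from -1.85 for Myadm to -1.13 for Atf3. In thinned cells 8 of the 14 stayed at least 2-fold lower, while Klf2, Clic5, Fas, Cavin2, Atf3 and Car4 were lower by less. Apobec3, Cavin2 and Atf3 were lower by less than 2-fold without artery-set and vein-set cells, Car4 with at least 8 rule-gene UMIs per cell, and Gstm1 and Atf3 with at least 2.

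Atf3 is also a gene that dissociation induces. Of 20 dissociation genes, 1 was at least 2-fold higher in C2D than in S2D (Nr4a1) and 6 lower (Egr1, Zfp36, Fosb, Atf3, Hspa1a and Hspa1b). This stands beside 9.29% and 4.03% of all genes, and the median log2 ratio of the list was -0.41. Against S6W, Hspa1a (-0.01) and Hspa1b (-0.02) were level. The part of dissociation in the lower values of Klf2, Cdkn1a and Atf3 was not tested.

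Of 14 measured venous genes, 5 were at least 2-fold higher in C2D than in S2D (Bgn, Ackr1, Csrp2, Lrg1 and Il1r1; 9.29% of all genes at that minimum) and 0 lower, with a median log2 ratio of 0.31. In C2D, 37 of 56 UMIs of Ackr1 and 86 of 221 of Bgn lay in 1 cell. Ackr1 had a log2 ratio of 0.30 in cells with at most 2 mural UMIs, and Bgn one of 0.41 in cells with at most 2 UMIs of other-cell markers. Selp (P-selectin) gave 281 UMIs in C2D, 89 in S2D and 30 in S6W, and Vwf (von Willebrand factor) gave 107 UMIs in C2D, 33 in S2D and 11 in S6W. Scaled, C2D and S2D were near each other and S6W far lower, with log2 ratios of 0.34 (-0.01 to 0.70) for Selp and 0.38 (-0.20 to 0.98) for Vwf over S2D. The S2D values rest on few cells, with 57 and 32 UMIs of Selp in 2 cells and 24 of Vwf in 1 cell. In C2D, Selp was found in 10 cells and Vwf in 22. Under the alternatives, S6W as control among them, the log2 ratio ranged from -0.05 to 3.48 for Selp and from -0.06 to 3.54 for Vwf. Of 161 UMIs of Vcam1, which holds leukocytes on the vessel wall, 159 lay in vein-set cells in C2D, and of 70 in S2D, 68 lay in 1 vein-set cell. In S6W, 8 UMIs of Vcam1 lay in vein-set cells and 8 in 1 other cell. Icam1, a ligand of leukocyte integrins, was found in cells without the vein set at 47.8% in C2D, 48.7% in S2D and 46.7% in S6W, and its log2 ratio over all cells was -0.26 over S2D. Of 16 measured adhesion genes, 2 were at least 2-fold higher (Ackr1 and Nectin2) and 1 lower (Cd99l2, with a log2 ratio of 0.35 over S6W), beside 9.29% and 4.03% of all genes.

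Lrg1, a secreted glycoprotein of venules at chr17:56119678-56122001 (minus strand) on mm10, was found well beyond the vein-set cells of C2D. It gave 396 UMIs in C2D, 66 in S2D and 25 in S6W, or 552 CPM in C2D, 230 in S2D and 29.2 in S6W, and in S2D 39 and 26 of its UMIs lay in 2 cells. The log2 ratio was 1.26 (0.88 to 1.66) over S2D and 4.24 (3.66 to 4.89) over S6W. Lrg1 was found in 58.2% of cells in C2D, 6.67% in S2D and 4.62% in S6W, in thinned cells in 22.2% in C2D, 4.44% in S2D and 3.12% in S6W, and in leukocyte barcodes in 2.43% in C2D, 0.519% in S2D and 1.12% in S6W. In cells without the vein set it was found in 37 of 69 cells (53.6%, 41.2 to 65.7) of C2D, 1 of 39 cells (2.56%, 0.0649 to 13.5) of S2D and 4 of 122 cells (3.28%, 0.9 to 8.18) of S6W. The interval of C2D lay clear of both saline intervals before thinning. Among thinned cells without the vein set the counts were 8 of 68 in C2D (interval 5.22 to 21.9%), 0 of 39 in S2D (0 to 9.03%) and 3 of 120 in S6W (0.519 to 7.13%), and these intervals overlap.

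With artery-set and vein-set cells left out, Lrg1 gave 78 UMIs in C2D, 1 in S2D and 6 in S6W, a log2 ratio of 5.30 over S2D (2.78 to 10.62) and 4.64 over S6W. Lrg1 was higher in C2D in mural (3.86), lymphatic (2.57) and leukocyte barcodes (1.52), while fibroblast barcodes held 4 UMIs in C2D, 6 in S2D and 7 in S6W. In C6W, 2 of 12 endothelial cells held 5 UMIs. Aplnr was likewise found outside the vein set, in cells without it at 50.7% in C2D, 20.5% in S2D and 28.7% in S6W.

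**Figure D4:**
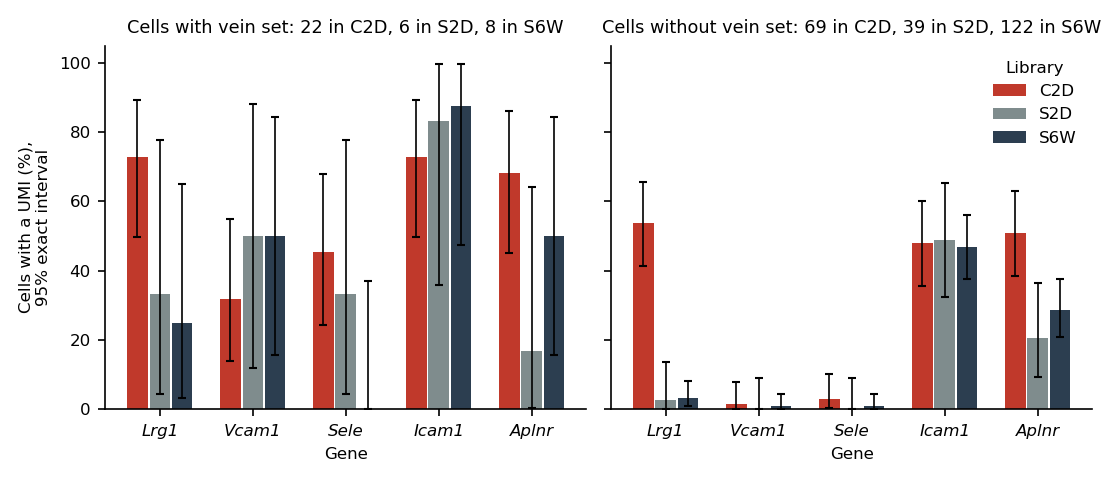
Share of cells with a UMI of Lrg1, Vcam1, Sele, Icam1 and Aplnr (bars, in percent, with 95% exact intervals) among cells with the vein set (left; 22 cells in C2D, 6 in S2D and 8 in S6W) and without it (right; 69, 39 and 122 cells). Without the vein set, Lrg1 is at 53.6% in C2D, 2.56% in S2D and 3.28% in S6W.

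Clotting and fibrinolysis genes had 5 of 14 measured members at least 2-fold higher in C2D than in S2D (among them Serpine2, Procr, Plat and Thbs1), beside 9.29% of all genes, and 0 lower, with a median log2 ratio of 0.69. Plat, tissue plasminogen activator, gave 148 UMIs in C2D, 13 in S2D and 43 in S6W, a log2 ratio of 2.19 (1.37 to 3.13) over S2D and 2.04 (1.54 to 2.56) over S6W. C2D was highest and the saline libraries lay well below it. Procr, the endothelial protein C receptor, gave 81 UMIs in C2D, 7 in S2D and 24 in S6W, a log2 ratio of 2.21 (1.10 to 3.57). Thbd, thrombomodulin, was within 2-fold (-0.54).

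Basement membrane and integrin genes had 4 of 22 members at least 2-fold higher in C2D than in S2D (Col18a1, Lamb1, Col15a1 and Sparcl1) and 1 lower (Itgb3). This stands beside 9.29% and 4.03% of all genes, and the median log2 ratio of the list was 0.41. Col15a1, a collagen of the basement membrane zone, gave 753 CPM in C2D, 279 in S2D and 309 in S6W, with log2 ratios of 1.43 (1.09 to 1.79) over S2D and 1.28 over S6W. Sparcl1, a matricellular protein, gave 1828 CPM in C2D, 759.8 in S2D and 1022 in S6W, with log2 ratios of 1.27 (1.06 to 1.48) over S2D and 0.84 over S6W. C2D was highest for both. The type IV collagen chains Col4a1 and Col4a2 had smaller ratios over S2D, 0.68 and 0.50. Itgb3 rested on 11 UMIs in C2D, 9 in S2D and 3 in S6W. Summed over the list the level was 12000 CPM in C2D, 8923 in S2D and 8342 in S6W.

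The sprouting list had 3 of 17 measured members at least 2-fold higher in C2D than in S2D (Sox4, Lamb1 and Apln), beside 9.29% of all genes, and 0 lower, with a median log2 ratio of 0.45. Apln, the ligand of Aplnr, gave 19 UMIs in C2D, 2 in S2D and 9 in S6W, a log2 ratio of 1.93 (-0.13 to 5.07) over S2D whose interval includes 0, and 24 UMIs in 1 cell of C6W. The tip-cell genes Esm1 and Angpt2 gave log2 ratios over S2D of -0.30 and -0.40. Of 11 VEGF and angiopoietin genes, 2 were at least 2-fold higher (Aplnr and Apln) and 0 lower. The VEGF receptors Kdr and Flt1, which chose the cells, had log2 ratios of -0.27 and -0.32.

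Notch genes had 2 of 12 members higher (Nrarp and Mfng) and 3 lower (Hes1, Jag1 and Notch3), with a median log2 ratio of -0.33 over S2D and 0.36 over S6W. Beside these counts, and the arterial and vascular tone counts that follow, 9.29% of all genes were higher and 4.03% lower. Of 14 arterial genes, Gja4, a connexin of arterial gap junctions, was the 1 higher member with 94 UMIs in C2D, 4 in S2D and 51 in S6W, and Stmn2, Sema3g, Jag1 and Mgp were lower. Over S6W, Stmn2 (0.28), Sema3g (0.36) and Mgp (1.93) had the opposite sign, and 128 of 185 UMIs of Mgp in S2D lay in 1 cell. Vascular tone genes had 4 of 12 members higher (Kcnj8, Ace, Apln and Edn1) and 0 lower. Edn1, endothelin 1, had a log2 ratio of -0.44 over S6W. Kcnj8 is also a mural gene, and mural markers were concentrated, with 378 UMIs in 1 cell of C2D, 299 in 1 of S2D and 551 in 1 of S6W.

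Inflammatory genes went both ways. The chemokine and cytokine list had 5 of 15 measured members past 2-fold upward in C2D over S2D (Cxcl16, Csf3, Cxcl1, Cxcl10 and Il1r1) and 3 lower (Cx3cl1, Cxcl9 and Csf1), with a list median log2 ratio of 0.37. Csf3 had 0 UMIs in S2D and was set against the floor of 3 UMIs. Cxcl10, a chemokine for T cells, gave 280 UMIs in C2D, 55 in S2D and 145 in S6W, with log2 ratios of 1.03 (0.60 to 1.47) over S2D and 1.21 over S6W. Csf1, the macrophage growth factor, gave 12 UMIs in C2D, 19 in S2D and 30 in S6W, with log2 ratios of -1.99 (-3.16 to -0.87) over S2D and -1.06 over S6W. Of 22 interferon-response genes, 1 was higher (Usp18) and 0 lower, with a median of -0.37. The NF-kB feedback list had 2 of 14 higher (Tnfaip2 and Nfkb2) and 2 lower (Birc3 and Zc3h12a). Beside the counts of these inflammatory lists, 9.29% of all genes were higher and 4.03% lower.

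Of 15 antigen presentation genes, 0 were higher and 4 lower, all class II genes (H2-Ab1, H2-Eb1, H2-Aa and Cd74), beside 9.29% and 4.03% of all genes. In S2D, 80 of 130 UMIs of Cd74 lay in 1 cell, and B and T cell markers gave 5 UMIs in C2D, 198 in S2D and 28 in S6W. Over S6W the log2 ratios were 0.29 for Cd74, 0.01 for H2-Aa, 0.15 for H2-Eb1 and 1.29 for H2-Ab1. The class I genes H2-K1 and H2-D1 were level between C2D and S2D, with log2 ratios of 0.09 and 0.02.

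Genes of dividing cells were scarce. Mki67, Ccnb1, Ccna2, Birc5 and Cenpf had 0 UMIs in each library, which allows up to 3 UMIs per library. Of 7 measured cell-cycle genes, 0 were higher and 2 lower (Ccnd1 and Stmn1). Beside this and the counts that follow, 9.29% of all genes were higher and 4.03% lower. Hif1a, the oxygen-regulated transcription factor, gave 216 CPM in C2D, 108 in S2D and 86.3 in S6W, with log2 ratios of 1.0 (0.44 to 1.61) over S2D and 1.32 (0.91 to 1.74) over S6W. It was the 1 higher member of 13 hypoxia and glycolysis genes, and Pfkfb3 the 1 lower, with a log2 ratio of -1.23 over S2D and 0.02 over S6W. Of 13 lipid and nutrient transport genes, Slc27a3 was higher and Slco2b1 lower, and of 20 protein folding genes none passed 2-fold.

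**Figure D5:**
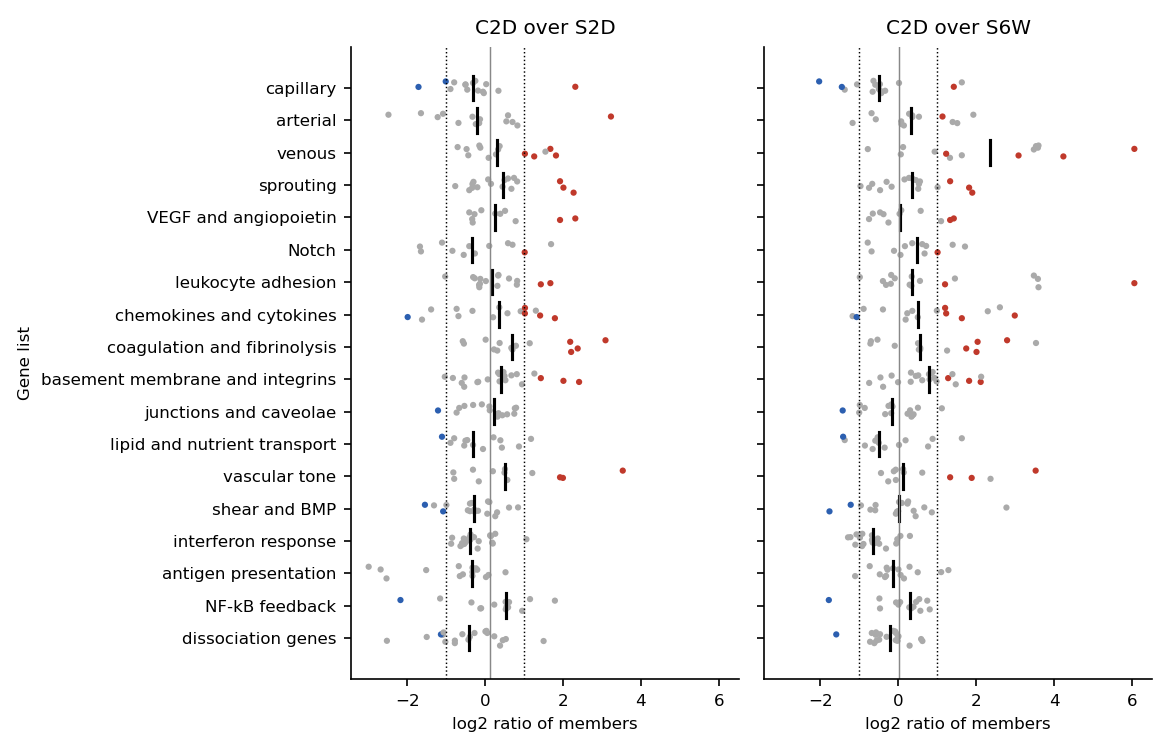
log2 ratio of each measured member of 18 gene lists in blood endothelial cells, C2D over S2D (left) and C2D over S6W (right). Points are genes (red, at least 2-fold above both saline libraries; blue, at least 2-fold below both; grey, others), black bars are list medians, the grey line is the median of all compared genes and dotted lines mark 2-fold; the clotting median is 0.69 and the flow and BMP median -0.27 over S2D.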

How the data were processed

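Single-cell 3' libraries of mouse pancreas were analysed, 1 per group. The deposited matrices hold raw UMI counts per gene and barcode. Per the submitters' processing notes, the reads were processed on build mm10 by Cell Ranger 3.0.2, with FastQC also listed. The cells and gene lists were chosen with earlier results of these data known.

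UMI counts were summed over the cells of a library and scaled with TMM factors (edgeR 4.0.16, R 4.3.3). Ratios carry exact conditional binomial 95% intervals, shares Clopper-Pearson intervals and levels Poisson intervals (scipy 1.17.1), all for counting error only. A library at 0 was set to a floor of 3 UMIs for a ratio. No p-value was computed, and the ratio step was tested on simulated counts. Genes with at least 100 UMIs over C2D and S2D were compared, list members with at least 20. List sums are CPM without TMM scaling.

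Named genes were up to 15 per direction beyond both saline libraries with the largest ratio over S2D, found in at least 10% of cells and at a level of at least 0.5 times that in other kept barcodes, with histone and unnamed (Gm, Rik and the like) genes left out, plus rule genes, vessel-set genes and up to 4 members per list. Other members named were chosen after their values were seen. Scrublet (scanpy 1.11.5) called 0.408% to 1.15% of barcodes doublets, and they were kept. Among the endothelial cells it called 0 in C2D, 1 in S2D, 1 in C6W and 1 in S6W. Without these, 72 genes were at least 2-fold higher in C2D than in S2D and 26 lower, in place of 78 and 37. The lower count thus depends in part on 1 called cell of S2D. Thinning drew 1000 UMIs per cell without replacement. Comparison barcodes (leukocyte, fibroblast, mural, lymphatic) were set by marker rules. The leukocyte, fibroblast and mural barcodes also had to hold no UMI of Pecam1, Cdh5, Kdr, Flt1 or Egfl7. Alternatives were other scalings (DESeq2 1.42.0 size factors among them), count minimums, cell rules and subtraction of free RNA. Gene positions are those of GENCODE on mm10. A member of the clotting list is not reported here.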

Additional observations from a re-analysis of the deposited data

Results flagged for a closer look

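The share of blood endothelial cells differed between caerulein and saline in opposite directions at the 2 recovery times. C2D minus S2D was 0.609 percentage points and C6W minus S6W was -5.965 percentage points. Over barcodes with no Ptprc UMI the differences were 3.043 for C2D minus S2D and -7.225 for C6W minus S6W. Over all kept barcodes the intervals of C2D and S2D overlapped. The saline libraries also differed from each other, at 1.3% in S2D and 6.4% in S6W, and C6W held only 12 such cells. Each value rests on 1 library per group, and the difference between recovery times was not tested.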

How the results depend on the processing

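With a minimum of 50 UMIs, C2D over S2D gave 193 genes upward and 77 downward past 2-fold, 79 lay above and 24 below both saline libraries, and 125 were higher and 57 lower in S6W than in S2D. A minimum of 400 UMIs gave 14, 13, 7, 5, 4 and 1 in the same order, and cells thinned to 1000 UMIs gave 9, 4, 2, 2, 8 and 1, both with fewer genes compared. A threshold of 2 rule-gene UMIs put 54 genes above both. At most 2 UMIs of other-cell markers left 50 higher in C2D and 12 lower in S6W. S6W as control gave 79 lower. Leaving out artery-set and vein-set cells gave 38 higher, 17 lower, 14 above both and 6 lower in S6W; this, the limit on mural markers and the removal of each gene's highest cell were chosen after seeing the data. Over barcodes without Ptprc, shares were 5.19% in C2D, 2.15% in S2D and 7.79% in S6W.

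List medians over S2D changed sign as follows. Thinning gave 0.0027 for Notch, 0.23 for lipid transport and -0.045 for vascular tone. Subtracting free RNA gave -0.18 for chemokines. S6W as control gave 0.36 for Notch, 0.012 for flow and BMP, -0.031 for hypoxia and -0.026 for protein folding. Without artery-set and vein-set cells, Notch was 0.38, chemokines -0.20 and flow and BMP 0.047. With at most 2 mural UMIs, lipid transport was 0.12, and without the highest cell Notch was 0.028.

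Single genes changed sign too. With 8 rule-gene UMIs Serpine2 was -0.33 and Arhgdib -1.68. H2-Ab1 was 0.69 without doublets, 0.78 with few other-cell markers, 0.46 without artery-set and vein-set cells and 0.35 without its highest cell. Stmn2 was 0.41 with few other-cell markers. With S6W as control, H2-Ab1 was 1.29, Stmn2 0.28, Sema3g 0.36, Mgp 1.93, Cd99l2 0.35, Cxcl9 0.19, Edn1 -0.44, Pfkfb3 0.021, Usp18 -0.022, Cd74 0.29, H2-Aa 0.0089 and H2-Eb1 0.15. Where fewer genes or cells do not account for a change, the cause was not tested. Of 1842 values of named genes under alternatives, 47 had the other sign, 19 of them for genes past 2-fold, which are those given here.

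No paired analysis was possible because each group has 1 library, so no replicate was left out. The 45 cells of S2D set the width of most intervals.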
